A study of Homo sapiens with 10 samples.

Results

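The nuclear genes for subunits of the mitochondrial respiratory chain and ATP synthase were followed in HEK293T cells, a transformed line of human embryonic kidney origin, that overexpressed the kinase BRSK2 or BRSK1. Members were the protein-coding genes of the count tables named SDHA, SDHB, SDHC, SDHD or CYC1, or with names that begin with NDUFA, NDUFB, NDUFC, NDUFS, NDUFV, UQCR, COX4I, COX5, COX6, COX7, COX8 or ATP5, without the NDUFAF assembly factors. This gave 91 of 58676 genes: 40 of complex I, 4 of complex II, 10 of complex III, 17 of complex IV and 20 of complex V, placed by name. Expression was measured by RNA sequencing in 3 BRSK2, 3 BRSK1, 2 hcRED and 2 Mock libraries, with no genetic change other than these named in the labels. BRSK2, BRSK1 and the fluorescent control protein hcRED were each expressed for 24 h. The labels do not say what the Mock cells received. They do not say either whether the libraries came from separate cultures, so p-values measure the spread between these libraries, which may be technical. BRSK1 and BRSK2 are related kinases of the AMPK family, and the series asked how their overexpression alters RNA levels.

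The respiratory chain sits in the inner mitochondrial membrane. Complexes I and II pass electrons from NADH and succinate to coenzyme Q, complex III passes them on to cytochrome c, and complex IV gives them to oxygen. Complexes I, III and IV pump protons, and complex V, the ATP synthase, uses the proton gradient to make ATP. Most subunits are encoded in the nucleus, translated in the cytosol and imported. A smaller group, made from mitochondrial DNA, forms the core of complexes I, III, IV and V, while complex II is wholly nuclear. The nuclear factor NRF1 (nuclear respiratory factor) and ETS factors such as GABPA are known to bind promoters of many of these genes. NRF1 is a different protein from NRF2 (NFE2L2), which the series' title names.

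Of the 91 members, 82 passed the filter on low counts and were tested: 39 of complex I, 4 of complex II, 10 of complex III, 12 of complex IV and 17 of complex V. The other 9 were NDUFC2-KCTD14, COX4I2, COX6A2, COX7A1, COX7B2, COX8C, ATP5EP2, ATP5J2-PTCD1 and ATP5L2. Of these, NDUFC2-KCTD14, COX4I2, COX6A2 and COX7B2 had 0 counts in all 10 libraries. Names are those of the count tables, and 20 members now carry another symbol, so that ATP5A1 and ATP5B are now ATP5F1A and ATP5F1B. Some names sort loosely: NDUFA4 is now counted as a complex IV subunit, and ATP5S, ATP5SL and COX7A2L are not regarded as structural subunits.

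With BRSK2, 5 members fell and 0 rose against the controls. These were UQCR11 of complex III and NDUFS6, NDUFB7, NDUFB10 and NDUFB4 of complex I. With BRSK1, 5 members fell and 0 rose, namely UQCR11, NDUFS6, NDUFB7, NDUFB10 and NDUFS5. The falls were between 0.20 and 0.49 on the log2 scale. No gene of complex II, IV or V passed this test with either kinase, but some did under other settings (library totals, the replicate block, removal of GC and length trends, or without BRSK2 replicate 1), among them SDHC and COX7B with BRSK2 and ATP5D and ATP5SL with both.

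The stretch before the start of the falling genes is shown because promoter motifs of nuclear respiratory genes lie there. RefSeq promoter entries (GRCh38.p14) were at hand for 5 of the 6 genes and not used for NDUFS5. Each line gives the 250 bases before the RefSeq start, 5′ to 3′ on the strand of the gene. The RefSeq start can differ from the gene coordinates given below. For UQCR11, NDUFS6, NDUFB10 and NDUFB4 the end of the window reaches into the gene by those coordinates. The windows are chr19:1605463-1605712 (minus strand), chr5:1801157-1801406 (plus), chr19:14572067-14572316 (minus), chr16:1959288-1959537 (plus) and chr3:120596086-120596335 (plus). Capitals mark matches, on either strand, to CGCANGCGC, an NRF1-type motif, or to CCGGAAG, an ETS-type motif, and overlapping matches run together.
UQCR11: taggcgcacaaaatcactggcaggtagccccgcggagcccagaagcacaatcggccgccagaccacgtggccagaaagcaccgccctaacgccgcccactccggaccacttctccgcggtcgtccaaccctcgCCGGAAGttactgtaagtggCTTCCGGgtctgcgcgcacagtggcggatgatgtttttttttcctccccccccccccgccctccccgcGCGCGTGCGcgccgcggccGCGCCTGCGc
NDUFS6: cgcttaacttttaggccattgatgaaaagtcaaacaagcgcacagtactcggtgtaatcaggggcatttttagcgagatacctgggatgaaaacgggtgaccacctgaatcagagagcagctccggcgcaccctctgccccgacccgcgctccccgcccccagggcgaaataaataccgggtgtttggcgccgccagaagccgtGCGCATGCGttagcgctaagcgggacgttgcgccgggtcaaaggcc
NDUFB7: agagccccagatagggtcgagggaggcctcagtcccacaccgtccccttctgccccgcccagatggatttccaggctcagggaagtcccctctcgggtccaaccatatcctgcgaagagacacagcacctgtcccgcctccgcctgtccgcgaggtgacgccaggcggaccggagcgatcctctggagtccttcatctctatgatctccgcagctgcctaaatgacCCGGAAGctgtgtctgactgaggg
NDUFB10: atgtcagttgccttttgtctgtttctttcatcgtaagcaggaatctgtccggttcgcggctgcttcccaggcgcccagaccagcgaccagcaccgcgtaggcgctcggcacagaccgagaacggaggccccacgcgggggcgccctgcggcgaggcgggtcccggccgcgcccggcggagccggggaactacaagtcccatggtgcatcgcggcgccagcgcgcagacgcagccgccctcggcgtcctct
NDUFB4: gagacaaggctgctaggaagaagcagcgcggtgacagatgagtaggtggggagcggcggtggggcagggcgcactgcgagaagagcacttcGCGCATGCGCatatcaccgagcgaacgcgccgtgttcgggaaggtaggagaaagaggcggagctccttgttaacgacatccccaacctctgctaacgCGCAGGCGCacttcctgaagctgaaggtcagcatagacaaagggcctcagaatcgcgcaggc
UQCR11 held 2 matches to the NRF1-type motif and 2 to the ETS-type motif. NDUFS6 held 1 and NDUFB4 held 3 matches to the NRF1-type motif, counted on both strands, and neither held an ETS-type match. NDUFB7 held 1 ETS-type match, and NDUFB10 held 0 matches to either motif. Of the 65 tested members with an entry, 19 (29.2%) held the NRF1-type motif and 16 (24.6%) the ETS-type motif in this window. Among all 27305 promoters of the same length the shares were 7.09% and 8.82%. These promoters were not limited to tested genes, as the members were, so the shares are not like for like. A match is a run of letters only, and none was tied to the changes below.

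UQCR11 encodes the smallest subunit of complex III and lies on chromosome 19, 1597172 to 1605490, minus strand (hg38). It had 16.2, 15.5 and 15.3 CPM in BRSK2 libraries and 16.8, 16.5 and 17.6 CPM in BRSK1 libraries, against 23.0 and 18.7 CPM in hcRED and 23.5 and 23.3 CPM in Mock libraries (CPM, counts scaled to library size with TMM factors). Every kinase library was below every control library, and hcRED replicate 3 was the lowest control. The log2 change was -0.49 ± 0.10 (SE) with BRSK2 (adjusted p = 0.00238, edgeR quasi-likelihood test) and -0.38 ± 0.09 with BRSK1 (adjusted p = 0.0182). Both kinases were set against the same 4 control libraries here and in all that follows, so their changes are not independent of each other. In bulk RNA, fewer cells with a transcript and less of it per cell cannot be told apart.

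NDUFS6, a zinc-binding subunit of the matrix arm of complex I, is on chromosome 5, 1801400 to 1816605, plus strand. It had 88.6, 83.9 and 75.6 CPM in BRSK2 libraries and 78.7, 85.4 and 75.9 CPM in BRSK1 libraries, against 108 and 99.9 CPM in hcRED and 108 and 93.7 CPM in Mock libraries. The groups did not overlap. The change was -0.31 ± 0.07 with BRSK2 (edgeR adjusted p = 0.00798) and -0.36 ± 0.07 with BRSK1 (adjusted p = 0.0045).

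NDUFB7 and NDUFB10 belong to the membrane arm of complex I and carry cysteine-rich folds that are oxidised in the intermembrane space. NDUFB7 (chromosome 19, 14566078 to 14572062, minus strand) had 59.9, 58.7 and 58.7 CPM with BRSK2 and 58.2, 65.3 and 60.4 CPM with BRSK1, against 76.2 and 69.9 CPM with hcRED and 79.0 and 66.4 CPM in Mock. The highest BRSK1 library lay just under the lowest Mock library. The change was -0.30 ± 0.07 (edgeR adjusted p = 0.00964) with BRSK2 and -0.25 ± 0.07 (adjusted p = 0.0334) with BRSK1. NDUFB10 (chromosome 16, 1959508 to 1961975, plus strand) had 174, 175 and 166 CPM with BRSK2 and 168, 167 and 178 CPM with BRSK1, against 203 and 183 CPM with hcRED and 216 and 191 CPM in Mock. Again no kinase library reached a control library. It fell by 0.20 ± 0.06 with BRSK2 (edgeR adjusted p = 0.0386) and by 0.21 ± 0.06 with BRSK1 (adjusted p = 0.0392).

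NDUFS5 and NDUFB4 each passed the test with 1 kinase. NDUFS5 (chromosome 1, 39026318 to 39034636, plus strand), another cysteine-rich accessory subunit, had 128, 142 and 135 CPM with BRSK2 and 118, 137 and 126 CPM with BRSK1, against 160 and 141 CPM with hcRED and 172 and 142 CPM in Mock. The BRSK1 libraries were below all controls, while a BRSK2 library overlapped them. The change was -0.19 ± 0.07 with BRSK2 (edgeR adjusted p = 0.103) and -0.28 ± 0.07 with BRSK1 (adjusted p = 0.0215). NDUFB4 (chromosome 3, 120596309 to 120602500, plus strand), a small subunit of the membrane arm, had 61.7, 74.7 and 68.2 CPM with BRSK2 and 73.8, 77.3 and 82.6 CPM with BRSK1, against 87.6 and 77.3 CPM with hcRED and 84.7 and 75.5 CPM in Mock. BRSK2 replicate 2 came within 1 CPM of the lowest control, and the BRSK1 libraries overlapped the controls. The change was -0.25 ± 0.07 (edgeR adjusted p = 0.0371) with BRSK2 and -0.06 ± 0.07 (adjusted p = 0.678) with BRSK1. Set directly against BRSK1, BRSK2 gave differences of 0.09 ± 0.08 for NDUFS5 (edgeR adjusted p = 0.678) and -0.19 ± 0.08 for NDUFB4 (adjusted p = 0.306), so neither gene was shown to differ between the kinases.

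**Figure D1:**
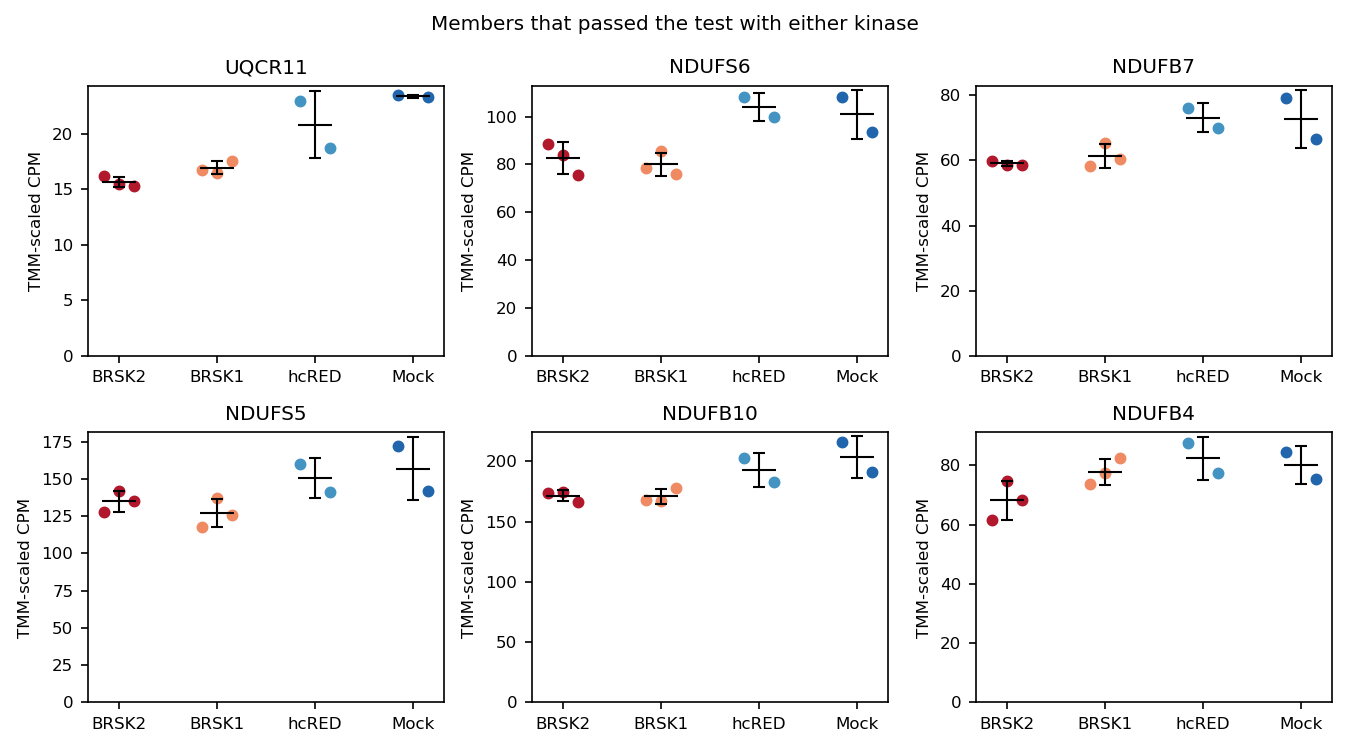
TMM-scaled CPM (y axis, from 0) in each library for the 6 members that passed the test with BRSK2 or BRSK1. Points are libraries, and bars give the mean and SD of 3 BRSK2, 3 BRSK1, 2 hcRED and 2 Mock libraries. The kinase points lie below all 4 control points for UQCR11, NDUFS6, NDUFB7 and NDUFB10, and overlap them for NDUFS5 with BRSK2 and for NDUFB4 with BRSK1.

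The 5 of 82 members that fell with BRSK2 are 6.1%, and 3.05% of all 16936 tested genes fell; 4.77% of all genes rose, against 0 of 82 members. With BRSK1 the 5 members that fell are again 6.1%, beside 2.66% of all genes, and 3.77% of all genes rose. All 3 BRSK2 libraries lay below all 4 controls for 10 members and above them for 1, beside 8.2% and 9.09% of all genes. All 3 BRSK1 libraries lay below the controls for 10 members and above them for 3, beside 8.44% and 9.93% of all genes. The groups overlapped for the other 71 members with BRSK2 and 69 with BRSK1. Those above with BRSK1 included NDUFA10 (log2 change 0.10) and COX7A2L (0.13), and the 1 above with BRSK2 was NDUFV1 (0.13). None of these 3 genes passed the test. In the authors' deposited table for BRSK2, which lists genes with an adjusted p under 0.05, the members were UQCR11 (log2 change -0.48), NDUFS6 (-0.30) and NDUFB7 (-0.29). The authors' deposited table for BRSK1 listed NDUFS6 (-0.35), UQCR11 (-0.37) and NDUFS5 (-0.27).

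These counts moved with single libraries. Without BRSK2 replicate 3 only UQCR11 passed with BRSK2, beside 0.427% of all genes that fell. For BRSK1, 0 members passed without BRSK1 replicate 3 (edgeR, with 11 at an unadjusted p under 0.05), beside 0.427% of all genes that fell. Without BRSK1 replicate 1, 2 members passed with BRSK1 (2.31% of all genes fell), and 3 without BRSK1 replicate 2 (0.695%). Without BRSK2 replicate 1, 9 passed with BRSK1, of which 1 rose (4.79% of all genes fell). Leaving out a control library leaves 1 library in its group, and the counts moved there as well. For those fits only the medians are given, below. With library totals in place of TMM factors, which put the median of all genes at -0.10 with BRSK2, 27 members fell with BRSK2, beside 14.8% of all genes. After GC content and transcript length trends were taken out library by library, 9 members fell with BRSK2 (4.62% of all genes) and 6 fell and 1 rose with BRSK1 (4.17% of all genes fell).

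By complex, the median log2 change with BRSK2 was -0.09 for complex I, -0.10 for complex II and -0.05 for each of complexes III, IV and V. With BRSK1 the medians were -0.08, -0.02, -0.10, 0.01 and -0.02 for complexes I to V in turn. The median of all tested genes was 0.00 in both comparisons. With single libraries left out, the sign of the median turned for complex IV with BRSK2 (-0.132 to 0.031) and for complexes IV (-0.063 to 0.112) and V (-0.119 to 0.021) with BRSK1. Values were below 0 for 59 of 82 members with BRSK2 and for 58 of 82 with BRSK1. Of all 16936 tested genes, 8380 and 8368 were below 0. The median of all members was -0.06 with BRSK2 and -0.04 with BRSK1. Without Mock replicate 2 it was -0.02 and 0.02, and without hcRED replicate 1 it was -0.03 and -0.01. Without Mock replicate 3 it was -0.12 and -0.10, and without hcRED replicate 3 it was -0.10 with both. Summed over all members, the level was 7852 ± 374 CPM with BRSK2, 7954 ± 190 CPM with BRSK1, 8205 ± 410 CPM with hcRED and 8180 ± 620 CPM in Mock (SD). The group sums overlapped within these SDs.

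**Figure D2:**
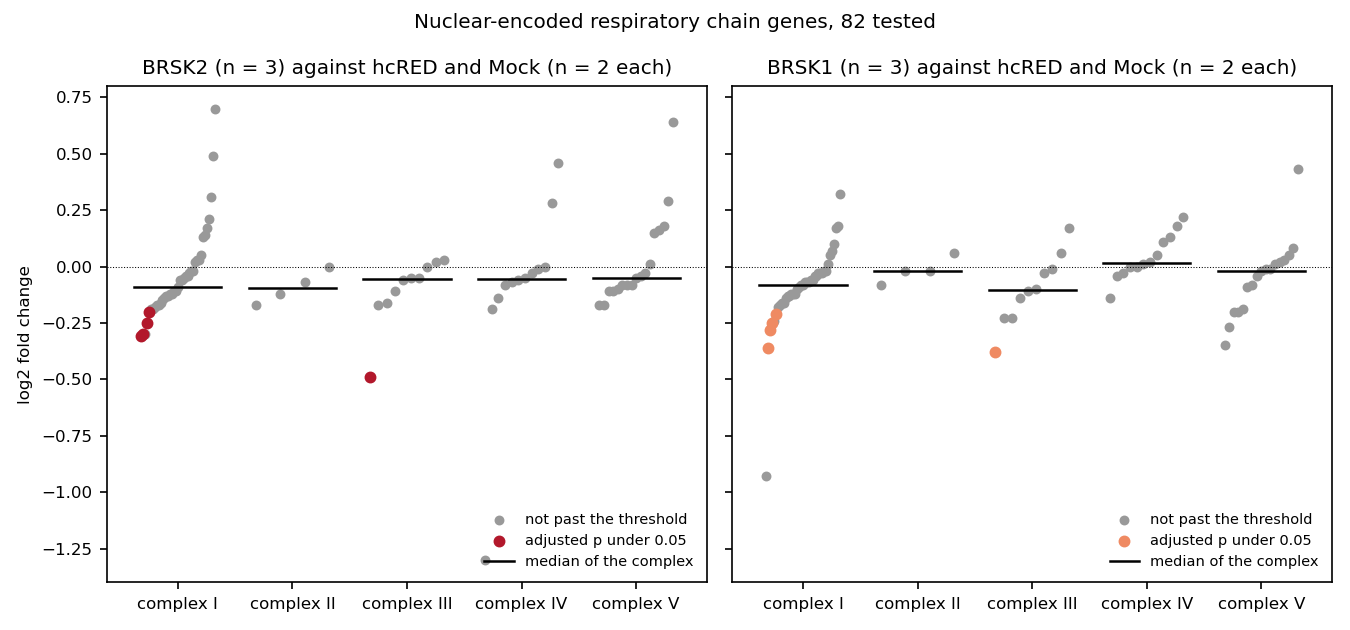
Log2 fold change (y axis) of each of the 82 tested members, by complex (x axis), for BRSK2 (left) and BRSK1 (right) against the mean of hcRED and Mock. Coloured points have an adjusted p under 0.05 and black lines are medians; all coloured points are in complexes I and III and below 0.

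Members that did not pass were named in each complex by the smallest p, with the SDH genes and CYC1 beside them. SDHC, which anchors complex II in the membrane, had 119, 130 and 120 CPM with BRSK2 and 134, 134 and 140 CPM with BRSK1, against 142 and 135 CPM with hcRED and 143 and 133 CPM in Mock. The BRSK2 libraries were below all controls, with a change of -0.17 ± 0.06 (edgeR adjusted p = 0.0725), and the BRSK1 change was -0.02 ± 0.06 (adjusted p = 0.856). SDHA and SDHB, the catalytic flavoprotein and iron-sulfur subunits, changed by 0.00 ± 0.06 and -0.07 ± 0.06 with BRSK2 and by -0.08 ± 0.06 and -0.02 ± 0.06 with BRSK1. SDHD, the other anchor, had -0.12 ± 0.08 with BRSK2 and 0.06 ± 0.08 with BRSK1. In complex III, UQCR10 had -0.17 ± 0.08 with BRSK2 and -0.23 ± 0.08 with BRSK1 (edgeR adjusted p = 0.194 and 0.0826), and CYC1, cytochrome c1, had -0.05 ± 0.06 and -0.10 ± 0.06.

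In complex IV no member came close to the threshold. The smallest p values with BRSK2 were those of COX7B (-0.19 ± 0.08, edgeR adjusted p = 0.15) and the testis-type COX6B2 (-1.30 ± 0.63, adjusted p = 0.214). COX6B2 had only 3 to 18 counts per library. With BRSK1 they were those of COX7A2L (0.13 ± 0.06, edgeR adjusted p = 0.215) and COX5B (0.11 ± 0.10, adjusted p = 0.57). In complex V, ATP5D, the delta subunit of the rotor, had -0.17 ± 0.07 with BRSK2 and -0.19 ± 0.07 with BRSK1 (edgeR adjusted p = 0.139 and 0.0862). ATP5SL, which is linked to complex I assembly, had -0.10 ± 0.07 with BRSK2 and -0.20 ± 0.07 with BRSK1 (edgeR adjusted p = 0.397 and 0.0732). ATP5G1, a gene for the membrane ring subunit c, had -0.17 ± 0.08 and -0.04 ± 0.08. ATP5B, the catalytic beta subunit, had the smallest within-group SD (0.019 on the log2 scale): 926, 924 and 922 CPM with BRSK2 and 981, 946 and 975 CPM with BRSK1, against 945 and 965 CPM with hcRED and 949 and 950 CPM in Mock. Its changes were -0.04 ± 0.06 and 0.02 ± 0.06, although the BRSK2 libraries were the lowest of the 10.

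Between the kinases, 0 of 82 members passed the test (edgeR, with 7 at an unadjusted p under 0.05; DESeq2 and limma-voom also gave 0), beside 0.348% of all genes in either direction. The smallest p was that of COX7B, with 55.3, 73.6 and 69.8 CPM in BRSK2 and 79.0, 80.3 and 75.2 CPM in BRSK1 libraries (edgeR adjusted p = 0.22). Between hcRED and Mock, 0 members passed (edgeR, with 0 at an unadjusted p under 0.05; DESeq2 and limma-voom also gave 0), beside 0.0295% of all genes.

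Levels between genes were compared as CPM per kilobase of the gene length in the tables. ATP5B was the highest at 408 CPM per kilobase (mean of 10 libraries). Among the other members chosen for naming, NDUFS5 followed at 256, NDUFB10 at 170, UQCRH at 145 and CYC1 at 137 CPM per kilobase. After these came NDUFB7 at 123, COX7C at 118 and COX5A at 109 CPM per kilobase. Members not chosen for naming were left out of this order. ATP5C1, the gamma subunit of the rotor, was the second highest of complex V at 71.6 CPM per kilobase. Of the 6 falling genes, UQCR11 was the lowest at 8.67 CPM per kilobase. In complex II the levels were 32.9 CPM per kilobase for SDHB, 25.8 for SDHA, 12.5 for SDHD and 9.39 for SDHC. The gene length equals all merged exons for 87 of the 91 members, so these orders depend on the annotated length as well. Without division by length, SDHA averaged 217 CPM, SDHC 133, SDHB 81.0 and SDHD 31.3. The length used was 14160 bases for SDHC and 2462 bases for SDHB.

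**Figure D3:**
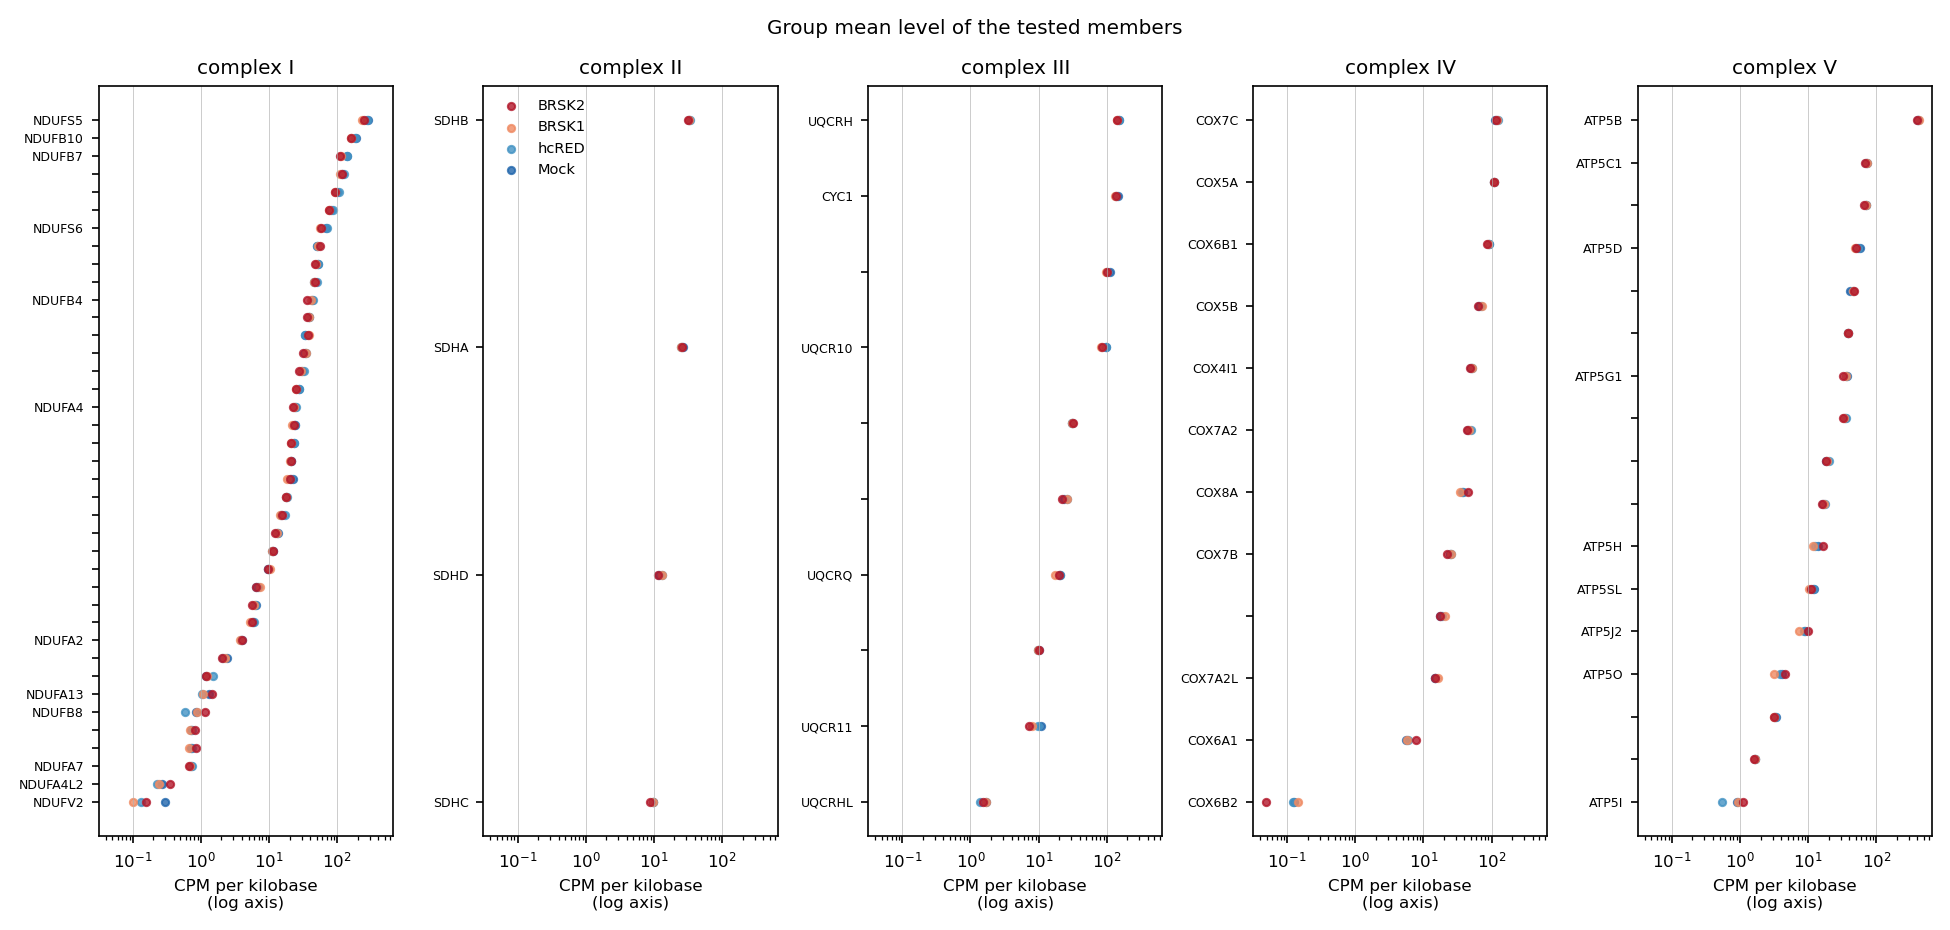
Group mean CPM per kilobase of gene length (x axis, log scale) for each tested member, by complex, with 1 point each for BRSK2, BRSK1, hcRED and Mock; only some rows carry the gene's name. The points of a gene mostly lie on top of each other, and wider gaps are seen at low levels such as NDUFV2 and COX6B2.

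Of the paired isoforms, the widely expressed gene was the higher. COX4I1 ran from 211 to 263 CPM and COX4I2, the lung and hypoxia form, had 0 counts. COX7A2 averaged 87.8 CPM and the muscle form COX7A1 0.325 CPM. COX6B1 averaged 83.7 CPM and COX6B2 0.406 CPM, COX8A 19.8 CPM and the testis form COX8C 0.0301 CPM, and NDUFA4 83.2 CPM and NDUFA4L2 0.777 CPM. COX6A1 averaged 8.54 CPM, and the muscle form COX6A2 had 0 counts.

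Several genes for essential subunits were listed at very low levels. NDUFV2, an iron-sulfur subunit of the NADH-oxidising tip of complex I, averaged 0.444 CPM, while its partner NDUFV1 averaged 218 CPM. NDUFB8 averaged 1.77 CPM, NDUFA7 0.991 CPM and ATP5I, the e subunit of ATP synthase, 0.846 CPM. In the GENCODE 29 annotation, other genes cover part of the exonic bases of each: 28.44% for NDUFV2, 48.47% for NDUFB8, 33.47% for NDUFA7 and 61.6% for ATP5I, where the neighbour is MYL5. Sharing as such was common, at 46 of 82 tested members (56.1%) and 48.6% of 13619 tested coding genes, and how shared bases were counted is not given in the sources used here. Its part in these levels was not tested. Of the 6 falling genes, UQCR11 shares 10.93% of its exonic bases and the other 5 share 0%. Members with near-identical copies are also uncertain, since 45 tested members have at least 1 pseudogene named after them, and UQCRH and UQCRHL can share reads. Among the falling genes, NDUFB4 has 12 such pseudogenes, NDUFS5 6, NDUFB10 2, NDUFS6 1, and UQCR11 and NDUFB7 0.

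A set of 7 members varied strongly between libraries of the same group. They are COX6A1, COX8A, ATP5H, ATP5O, ATP5J2, NDUFA2 and UQCRQ, picked after their values were seen, by an average level of 5 CPM or more and a within-group SD over 0.4 on the log2 scale. They are 9.46% of the 74 tested members at that level, where 0.56% of all genes at that level pass the same limits, and since the spread chose them no test is given. COX6A1, the widely expressed form of a complex IV subunit, had 6.90, 11.9 and 12.8 CPM with BRSK2 and 5.49, 12.9 and 4.61 CPM with BRSK1, against 10.6 and 5.44 CPM with hcRED and 11.7 and 3.02 CPM in Mock. Mock replicate 2 was 3.86 times Mock replicate 3. ATP5H, a stalk subunit of ATP synthase, had 45.8, 52.7 and 59.3 CPM with BRSK2 and 30.6, 55.6 and 25.9 CPM with BRSK1, against 55.3 and 27.0 CPM with hcRED and 62.1 and 28.0 CPM in Mock. ATP5O, the stalk protein also called OSCP, ran from 6.97 CPM in BRSK1 replicate 3 to 19.4 CPM in Mock replicate 2.

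The 7 shared much of the order of libraries. BRSK2 replicate 1 was the lowest BRSK2 library and BRSK1 replicate 2 the highest BRSK1 library in 7 of 7, and hcRED replicate 1 exceeded hcRED replicate 3 and Mock replicate 2 exceeded Mock replicate 3 in 7 of 7. Of the other 67 members at 5 CPM or more, 31 (46.3%) had BRSK1 replicate 2, hcRED replicate 1 and Mock replicate 2 on top of their groups, as had 1096 of 11079 genes (9.89%). The same order held for 52 of the 62 genes that passed the spread limits, 55 of which are not members and 16 of which are annotated pseudogenes. Both the 52 and the 62 include the 7 members from which the order was read. The 7 have a median transcript length of 607 bases, beside 1265 bases for the tested members and 3005 bases for all tested genes, and all 7 share exonic bases with another gene. The median deviation of the 7 from their own means ran from -0.60 in Mock replicate 3 to 0.57 in Mock replicate 2, while that of 362 other genes with transcripts under 1000 bases ran from -0.13 to 0.12. The 7 were picked by their spread and the 362 were not, so the wider range of the 7 was fixed by that choice. The part of transcript length was not tested. After the trend with GC content and length was removed from each library, the SD was 0.77 for COX6A1, against 0.83 before, 0.40 for NDUFA2, against 0.47, and 0.36 for UQCRQ, against 0.42, which puts UQCRQ under the limit of 0.4. The part of read counting, RNA quality or library handling in this order was not tested. With this spread, the changes of these genes had wide errors, such as 0.46 ± 0.60 with BRSK2 and 0.00 ± 0.60 with BRSK1 for COX6A1.

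**Figure D4:**
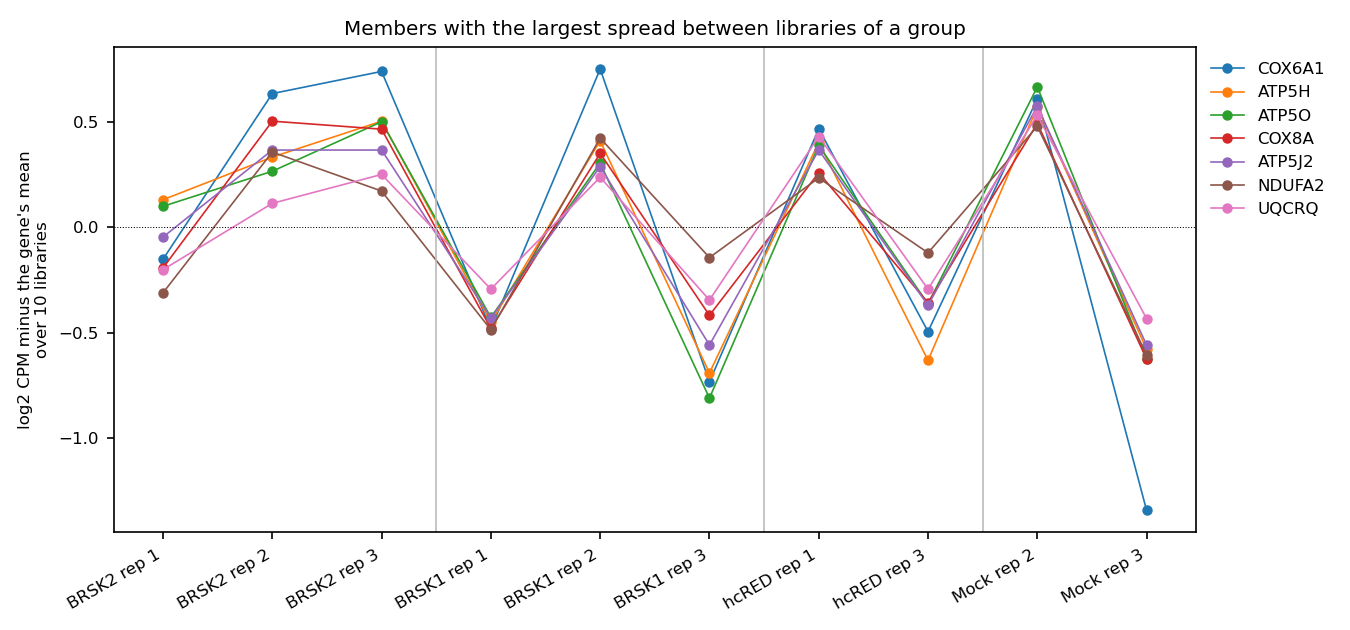
Log2 CPM minus the mean of the gene over 10 libraries (y axis) for the 7 members with the largest spread, by library (x axis); grey lines part the groups, and the lines between points only join the values of a gene. Within groups the genes move together, with BRSK2 replicate 1, BRSK1 replicates 1 and 3, hcRED replicate 3 and Mock replicate 3 low.

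Genes that work with the respiratory chain were followed as companion lists. Of all tested genes, 7.82% passed in either direction with BRSK2 and 6.43% with BRSK1, the shares to set beside each list. Of 52 tested assembly factors, 1 rose and 3 fell with BRSK2 (7.69%), and 1 rose and 1 fell with BRSK1 (3.85%). The riser was SDHAF4, an assembly factor for the SDHA flavoprotein, with 7.17, 9.05 and 9.03 CPM with BRSK2 and 6.87, 9.52 and 10.8 CPM with BRSK1, against 4.62 and 5.92 CPM with hcRED and 6.26 and 5.20 CPM in Mock. No control library reached a kinase library, and the log2 change was 0.62 ± 0.16 (edgeR adjusted p = 0.0221) and 0.73 ± 0.16 (adjusted p = 0.00892). The assembly factors that fell were NDUFAF8, TMEM70 and COA3 with BRSK2 (-0.28, -0.26 and -0.25) and COA7 with BRSK1 (-0.24). The median change of the list was -0.05 with BRSK2 and 0.00 with BRSK1.

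The 13 mRNAs made from mitochondrial DNA encode the partner subunits of complexes I, III, IV and V. Of these, 0 rose and 1 (7.69%) fell with BRSK2, and 0 rose and 9 (69.2%) fell with BRSK1. MT-ND2 had 2460, 2240 and 2090 CPM with BRSK2 and 1650, 2020 and 2270 CPM with BRSK1, against 2460 and 2760 CPM with hcRED and 3160 and 3500 CPM in Mock. The Mock libraries were the highest and BRSK1 replicate 1 the lowest. Most of the 9 mRNAs that fell with BRSK1 had all BRSK1 libraries below both hcRED libraries, but some overlapped them. The log2 change was -0.38 ± 0.09 (edgeR adjusted p = 0.0142) with BRSK2 and -0.58 ± 0.09 (adjusted p = 0.00138) with BRSK1. The list median was -0.21 with BRSK2, -0.47 with BRSK1 and -0.34 for hcRED against Mock itself, where 0 of 13 passed (edgeR). These 13 mRNAs took 4.50% to 5.25% of counts in BRSK2, 3.61% to 5.02% in BRSK1, 5.17% to 5.74% in hcRED and 6.39% to 6.89% in Mock libraries.

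Of 13 coenzyme Q and cytochrome c genes, 2 rose and 1 fell with BRSK2 (23.1%), and 1 rose and 0 fell with BRSK1 (7.69%). COQ8A and COQ8B, atypical kinases needed for coenzyme Q synthesis, rose by 0.26 ± 0.06 and 0.38 ± 0.09 with BRSK2 (edgeR adjusted p = 0.00609 and 0.00831), and PDSS2, which helps build the isoprenoid tail, fell by 0.35 ± 0.10 (adjusted p = 0.0313). COQ5, a methyltransferase of the pathway, rose by 0.32 ± 0.09 with BRSK1 (edgeR adjusted p = 0.0398). Of 18 genes of the TCA cycle and pyruvate dehydrogenase, 1 (5.56%) rose and 0 fell with each kinase. It was SUCLG2, of the GTP-forming succinyl-CoA ligase, with 59.6, 62.8 and 58.3 CPM with BRSK2 and 63.9, 63.0 and 63.5 CPM with BRSK1, against 55.5 and 48.0 CPM with hcRED and 50.4 and 53.5 CPM in Mock. All kinase libraries were above all controls, and the change was 0.22 ± 0.07 with BRSK2 (edgeR adjusted p = 0.0488) and 0.29 ± 0.07 with BRSK1 (adjusted p = 0.0123).

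Of 16 regulators of mitochondrial gene expression, 1 rose and 1 fell with BRSK2 (12.5%), and 0 rose and 2 fell with BRSK1 (12.5%). ESRRA, a nuclear receptor that activates respiratory genes together with PGC-1 coactivators, had 68.6, 77.1 and 76.7 CPM with BRSK2 and 62.6, 55.8 and 61.2 CPM with BRSK1, against 52.3 and 51.1 CPM with hcRED and 55.9 and 56.7 CPM in Mock. All BRSK2 libraries were above all others, and the log2 change with BRSK2 was 0.46 ± 0.07 (edgeR adjusted p = 0.000157). TFAM, which packages and transcribes mitochondrial DNA, fell by 0.20 ± 0.06 with BRSK2 (edgeR adjusted p = 0.0395). With BRSK1, TWNK, the mitochondrial helicase, fell by 0.30 ± 0.07 and YY1 by 0.18 ± 0.06 (edgeR adjusted p = 0.0146 and 0.0496). TWNK had 70.5, 64.1 and 57.7 CPM with BRSK1, against 72.1 and 66.4 CPM with hcRED and 88.9 and 90.2 CPM in Mock, so the BRSK1 and hcRED libraries overlapped and only Mock lay apart. For hcRED against Mock its log2 difference was -0.37 ± 0.09 (edgeR adjusted p = 0.156). PPRC1, a PGC-1-related coactivator, was higher with BRSK2 than with BRSK1, by 0.32 ± 0.06 (edgeR adjusted p = 0.0185), with 180, 171 and 172 CPM in BRSK2 and 145, 133 and 140 CPM in BRSK1 libraries.

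Of 76 mitochondrial ribosomal protein genes, 1 rose and 6 fell with BRSK2 (9.21%), and 0 rose and 2 fell with BRSK1 (2.63%). Their products translate the mitochondrial mRNAs. MRPL41 had 88.7, 95.9 and 85.8 CPM with BRSK2 and 96.6, 88.2 and 98.0 CPM with BRSK1, against 116 and 113 CPM with hcRED and 104 and 104 CPM in Mock. Its libraries did not overlap the controls, and it fell by 0.27 ± 0.06 with BRSK2 (edgeR adjusted p = 0.00739) and by 0.21 ± 0.06 with BRSK1 (adjusted p = 0.0399). MRPL57 (-0.34), MRPL13 (-0.31) and MRPL35 (-0.26) also fell with BRSK2, and MRPL52 (-0.30) with BRSK1. The list median was -0.07 with BRSK2 and -0.08 with BRSK1.

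**Figure D5:**
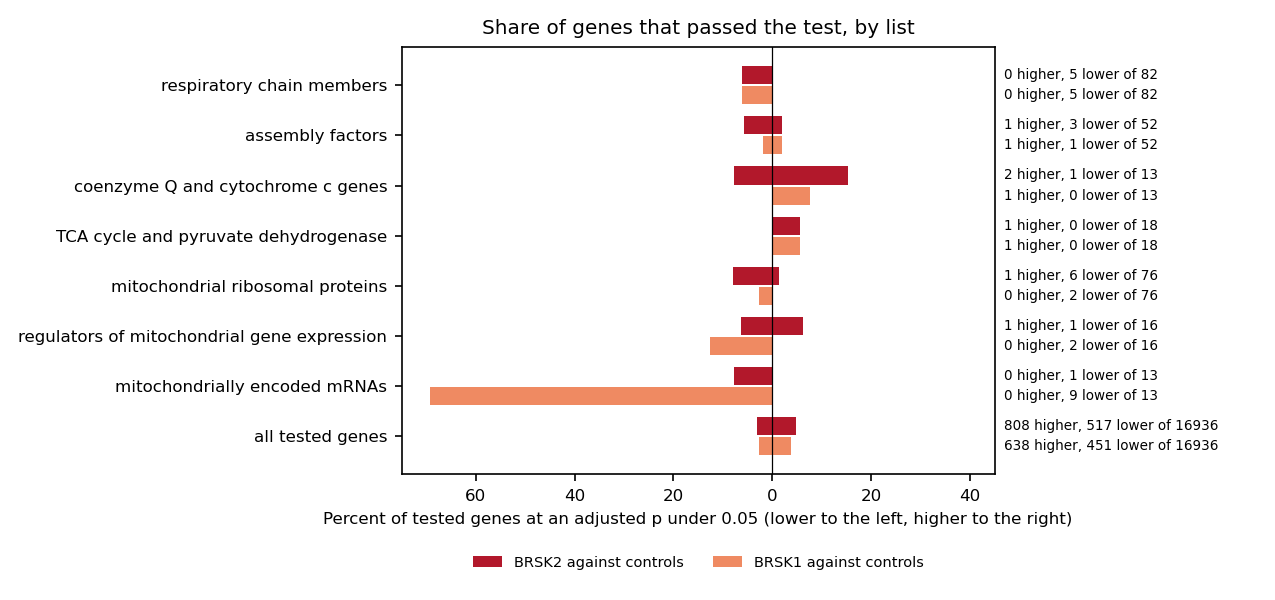
Percent of tested genes (x axis) of each list that were lower (left of 0) or higher (right of 0) at an adjusted p under 0.05 with BRSK2 and with BRSK1 against hcRED and Mock; the text at the right gives the counts. The respiratory chain members have bars to the left only, and the longest bar is that of the mitochondrially encoded mRNAs with BRSK1, 9 of 13.

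Libraries held between 16516116 and 24304302 counts. BRSK2 took 6.99% to 10.4% of counts in the BRSK2 libraries, and BRSK1 took 4.72% to 6.96% in the BRSK1 libraries. All 6 markers of HEK293T cells were detected in every library. The 20 markers of other cell types summed to 33.2 to 49.2 CPM in BRSK2, 33.6 to 103 CPM in BRSK1, 45.3 to 52.9 CPM in hcRED and 48.9 to 54.1 CPM in Mock libraries. COL1A1 was the largest part in every library but BRSK1 replicate 1. The leukocyte marker PTPRC was at 0 in all libraries. BRSK1 replicate 1 stood apart, with 63.3 CPM of the epithelial keratins KRT5 and KRT14 together, against 2.48 to 14.1 CPM in the other libraries. It was also the lowest library for MT-ND2, and without it NDUFS6 and UQCR11 still passed with BRSK1. The part of these transcripts in the results was not tested.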

How the data were processed

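RNA from HEK293T cells after 24 h of BRSK2, BRSK1 or hcRED expression, and from Mock cells, was sequenced, with 3 µg sent per sample, per the labels' protocols. Groups came from the labels. Build hg38 and the tools STAR, limma and edgeR are named in the submitters' processing notes; counter and strand setting are not given there. The authors deposited raw counts per gene, in 1 table per kinase. Control columns were identical in both (0 genes differed), so the tables were joined into 10 libraries. The authors' deposited tables of log2 fold changes and p-values were used only where named, and limma's scores in those deposited tables were not used. The deposited log2 CPM values were not used as measurements.

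Counts were tested with edgeR 4.0.16 (R 4.3.3): TMM factors, filterByExpr (minimum count 10, total 15), robust glmQLFit with 4 group means, and glmQLFTest, with Benjamini-Hochberg adjustment over all 16936 tested genes and a threshold of 0.05. Controls were the mean of hcRED and Mock. The biological coefficient of variation was 8.06%. CPM values are TMM-scaled, except those of markers, which use library totals; SE is the log2 change over the square root of F. Steps were tested on simulated counts.

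The members, the companion lists and the rule for named genes were chosen with earlier results of these data known. Named were all members that passed, per complex the 2 highest per kilobase and the 2 with the smallest p for each kinase, the SDH genes, CYC1, isoform pairs, and up to 4 passing genes per companion list; genes of the low-level and variable groups, and those whose libraries lay apart from the controls, were chosen after their values were seen. Alternatives covered scaling (RLE, upper quartile, library totals, BRSK1 and BRSK2 set aside), no filter or 1 CPM in 3 libraries, DESeq2 1.42.0, limma-voom 3.58.1, no robust estimation, a replicate block, leaving out single libraries, a threshold of 0.01, other control groups, only the groups compared, and removal of GC and length trends (lowess, span 0.3, GENCODE 29 transcripts). The SD of variable members after trend removal and with library totals was added after seeing the data. A member is not reported by name here. Exonic overlap was taken from GENCODE 29 on the same build.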

Additional observations from a re-analysis of the deposited data

How the results depend on the processing

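The count of members that fell with BRSK2 was 5, and 27 with library totals alone, 9 after removal of GC and length trends, 3 with limma-voom, 3 without robust estimation, 3 with hcRED alone as control, 3 with only the groups compared, 3 at an adjusted p under 0.01, and 1 to 6 with a library left out. With BRSK1 it was 5, and 8 with library totals, 1 with hcRED alone, 1 at an adjusted p under 0.01, and 0 to 9 with a library left out (0 without BRSK1 replicate 3, 9, of which 1 higher, without BRSK2 replicate 1). The other alternatives, apart from the replicate block, gave 4 to 7. The share of all genes that fell moved with the settings too. With BRSK2 it was 3.05%, and 14.8% with library totals, 2.46% with limma-voom, 2.49% without robust estimation and 1.36% with hcRED alone. It was 2.2% with only the groups compared and 0.732% at an adjusted p under 0.01. With BRSK1 it was 2.66%, and 4.33% with library totals, 0.201% with hcRED alone and 0.449% at an adjusted p under 0.01. UQCR11 passed with BRSK2 in 25 of 25 alternative fits, with an adjusted p of at most 0.0412, and with BRSK1 in 21 of 25, with an adjusted p of at most 0.205. NDUFS6 passed in 24 of 25 for each kinase. NDUFB10 passed in 16 and 15, NDUFB4 in 15 with BRSK2, and NDUFS5 in 20 with BRSK1. No direction of a passing member turned in any alternative. BRSK2 against BRSK1 and hcRED against Mock gave 0 members in all alternatives run.

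Whether the replicate numbers pair the libraries was left undecided, and the main fit held no term for them. Deviations from the group means correlated between -0.0511 and 0.161 for same-numbered libraries, and between -0.14 and 0.1 for the others. As the group means rest on 2 or 3 libraries, these correlations cannot decide it. With the replicate block, 9 members passed with BRSK2 and 9 with BRSK1 (8 lower, 1 higher), and 0 in the other comparisons. Of all genes, 5.72% fell with BRSK2 and 5.5% with BRSK1 under the block, so the share of all genes moved up as well. Between hcRED and Mock, 148 genes were higher and 286 lower under the block, beside 1 and 4 in the main fit.

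The median log2 change with BRSK2 under library totals was -0.191 for complex I and -0.203 for complex II, and -0.163 for complex II against BRSK1. With a library left out it ran from -0.174 to -0.022 for complex I and from -0.128 to -0.045 for complex II and -0.138 to -0.03 for complex III with BRSK2, from -0.14 to -0.028 for complex I with BRSK1, and for hcRED against Mock from -0.073 to 0.087 for complex I and from -0.079 to 0.251 for complex IV, which was 0.181 with the replicate block. The causes were not tested, except that all genes shift with library totals. Groups of 2 and 3 libraries limit the size of change that can be detected, and a group reduced to 1 library took its spread from the rest of the fit.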
